A study of Mus musculus with 6 samples.

Results

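The genes described here are 9 components of the mitochondrial route of apoptosis: the anti-apoptotic genes Bcl2, Bcl2l1 and Mcl1, the pore-forming effectors Bax and Bak1, the BH3-only genes Bcl2l11 and Bbc3, and the apoptosome genes Apaf1 and Casp9. They were selected by gene symbol and were 9 of the 24935 genes in the deposited table. The libraries came from the left hippocampus of C57BL/6 mouse pups of both sexes at postnatal day 14 (P14). Pups and their dams were kept either in room air or in 85% oxygen from P2 to P14 in a chamber at normal pressure, with 3 animals and 1 library per animal in each group. The labels give no genetic change or drug in either group. The name of the authors' own comparison holds the word oil for both groups. The study's text does not describe it, and what it stands for is not known. The number of each library is that of its column and not of an animal, and litters are not given. Air and hyperoxia mean throughout the libraries so named in the column headings, and no gene named in the labels checks them. The study's printed RNA tables give Jun, Tnfrsf25, Slc17a7 and Cspg4, among other genes, the opposite sign. The sources used do not settle which is right. This doubt covers the direction of every gene below, not of these genes alone. Were the headings exchanged, every rise below would be a fall and every fall a rise, with the same sizes and p-values.

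The mitochondrial route of apoptosis is decided by protein contacts within the BCL2 family. Anti-apoptotic members hold the effectors BAX and BAK in check, and BH3-only proteins release or engage those effectors by placing their BH3 helix in a groove of the partner. Once the effectors open the outer mitochondrial membrane, cytochrome c leaves and binds APAF1, which assembles the apoptosome and activates caspase 9. In the developing brain this route removes surplus neurons. The values here are mRNA levels, and the activity of this route depends largely on protein contacts and cleavage that mRNA does not show.

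The shared feature of the 7 BCL2 family members is the BH3 motif, so its coding stretch is shown for each of them from the GENCODE M21 transcripts (30 bases, 5′ to 3′). Capitals mark the 18 bases that encode a leucine, 3 further residues, a glycine or alanine and an aspartate.
Bcl2: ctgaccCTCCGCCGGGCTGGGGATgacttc
Bcl2l1: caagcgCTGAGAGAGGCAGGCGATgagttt
Mcl1: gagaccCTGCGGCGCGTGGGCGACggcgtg
Bax: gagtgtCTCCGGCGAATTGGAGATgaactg
Bak1: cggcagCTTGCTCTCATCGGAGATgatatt
Bcl2l11: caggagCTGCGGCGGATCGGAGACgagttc
Bbc3: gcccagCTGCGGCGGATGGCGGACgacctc
The fifth residue of this core was glycine in 6 of the 7 genes and alanine in Bbc3. The Casp9 coding sequence held no such core, and the match in Apaf1 lies at codon 1141 of a protein that is not a BCL2 relative. Reads were counted per gene, so transcripts with and without this stretch were not told apart.

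The deposited values are called normalised read counts here, since each library's counts were scaled by a size factor of its own. Values by library are listed in the order of libraries 1, 2 and 3. Genes were tested with limma on log2 of the normalised read count plus 1, and a gene is called where the Benjamini-Hochberg adjusted p over all 17778 genes tested was under 0.05. All 9 genes passed the filter of a mean of at least 10. Each library held between 30384052 and 38746972 reads on genes, and the 9 genes had between 217 and 3891 reads per library. The groups parted on the first principal component (52.7% of the variance), and hyperoxia library 2 stood apart from the other hyperoxia libraries on the second (19.5%).

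Of the 9 genes, 5 were called, against 30.5% of all genes tested. The 9 genes were chosen with earlier results of these data known, so the shares given here are a description and not a test. Bcl2, Bcl2l11 and Apaf1 rose in the hyperoxia libraries, where 14.9% of all genes were called higher. Bcl2l1 and Bak1 fell there, where 15.6% of all genes were called lower. Mcl1, Bax, Bbc3 and Casp9 were not called. At an unadjusted limma p under 0.05 there were 6 of the 9, against 42.7% of all genes. The groups did not overlap for 7 of the 9 genes, against 46.1% of all genes. Hyperoxia lay above air for 4 of them (22.3% of all genes) and below for 3 (23.8%). For 3 libraries against 3, the smallest p of an exact permutation test, two-sided, is 0.1. The median log2 fold change of the 9 genes was -0.12, and that of all genes tested was -0.01. Each limma p-value rests on the spread between 3 libraries per group, drawn towards a trend over all genes tested. Whether the pups of a group shared a litter or a chamber is not given, so spread between exposures is not covered. The tissue is bulk, so fewer cells of a type and less RNA per cell cannot be told apart.

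**Figure D1:**
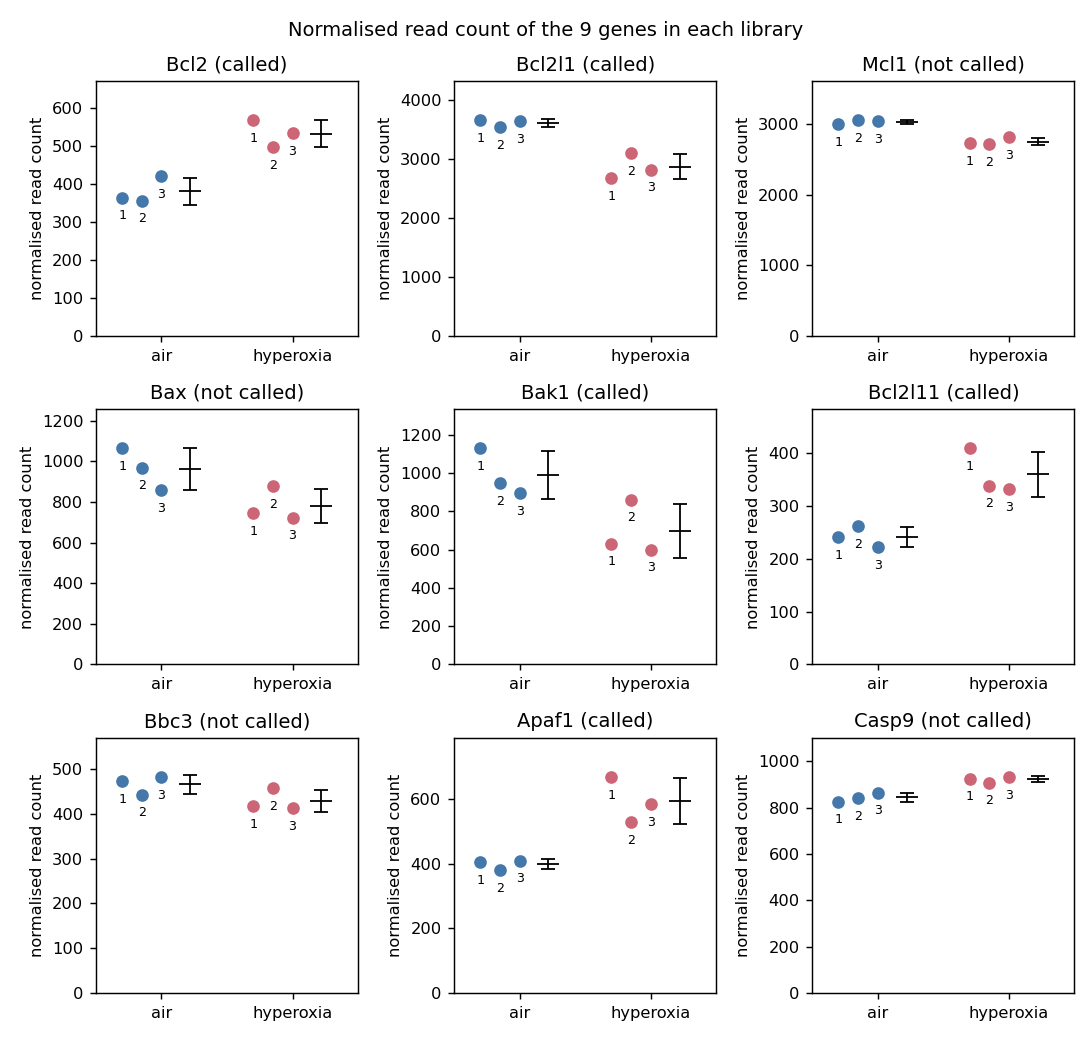
Normalised read count (vertical axis, from 0) of each of the 9 genes in the 3 air and 3 hyperoxia libraries, with points numbered by library and bars for the mean ± SD. The groups overlap for Bax and Bbc3 and are apart for the other genes.

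Among the anti-apoptotic genes, Bcl2 rose and Bcl2l1 fell. Bcl2, the founding member of the family, lies on chromosome 1 (106538178-106714274, minus strand, GRCm38). Its normalised read count was 364, 356 and 421 in air and 568, 496 and 533 in hyperoxia. All hyperoxia libraries were above all air libraries, and the mean rose 1.40-fold from 380 ± 35.5 to 532 ± 36.3 (SD, n = 3 each). The log2 fold change was 0.49 with a standard error of 0.10 (limma adjusted p = 0.0072), and the gene was called under all 16 alternative settings.

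Bcl2l1 encodes BCL-XL, an anti-apoptotic protein abundant in neurons, and lies on chromosome 2 (152780668-152831728, minus strand). Air libraries 1, 2 and 3 had 3664, 3539 and 3646 normalised reads, and hyperoxia libraries had 2682, 3104 and 2822. The air libraries were close together and all above the hyperoxia libraries, of which library 2 was nearest to air. The mean fell from 3616 ± 67.5 to 2870 ± 215 (SD, n = 3 each), a log2 fold change of -0.34 with a standard error of 0.07 (limma adjusted p = 0.0089), also called under all 16 alternatives. This gene is spliced into a long anti-apoptotic and a short pro-apoptotic form, which counts per gene do not separate.

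Mcl1, on chromosome 3 (95658788-95663176, plus strand), encodes a short-lived anti-apoptotic protein and was the member with the smallest SD relative to its mean in air (1.07%). Its normalised read count was 2997, 3059.9 and 3039.9 in air and 2727, 2716 and 2816 in hyperoxia. The groups did not overlap, with means of 3032 ± 32.3 and 2753 ± 54.5 (SD, n = 3 each), but the log2 fold change of -0.14 with a standard error of 0.06 did not pass the test (limma adjusted p = 0.12). It passed under 1 of 16 alternatives, the correction for transcript length and GC content described below (-0.15, limma adjusted p = 0.043).

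Of the effectors, which form the pore in the outer mitochondrial membrane, Bak1 was called and Bax was not. Bak1 lies on chromosome 17 (27019810-27029009, minus strand) and had 1129, 947 and 894 normalised reads in air and 632, 862 and 599 in hyperoxia. Hyperoxia library 2 came close to air library 3, and the other hyperoxia libraries were far lower. The mean fell from 990.2 ± 123 to 698 ± 143 (SD, n = 3 each), a log2 fold change of -0.52 with a standard error of 0.14 (limma adjusted p = 0.023). The call was lost in limma without air library 1 (-0.42, adjusted p = 0.11), air library 2 (-0.54, 0.064), hyperoxia library 1 (-0.45, 0.087) or hyperoxia library 3 (-0.42, 0.052), and in limma without the mean-variance trend (adjusted p = 0.073). Without hyperoxia library 2 the limma log2 fold change was -0.68 (adjusted p = 4.6e-04). Of the exon bases of Bak1, 18.2% overlap exons of Ggnbp1 on the other strand, which had a mean of 128 normalised reads, and it is not known whether reads were assigned by strand.

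Bax lies on chromosome 7 (45461697-45466898, minus strand). It had 1063, 968 and 857 normalised reads in air and 744, 876 and 722 in hyperoxia. Hyperoxia library 2 lay above air library 3, so the groups overlapped. Means were 963 ± 103 in air and 781 ± 83.4 in hyperoxia (SD, n = 3 each), with a log2 fold change of -0.30, a standard error of 0.11 and a limma adjusted p of 0.060. Without hyperoxia library 2 the gene was called (-0.39, limma adjusted p = 0.0071). That setting called 22% of all genes lower. Of the exon bases of Bax, 12.2% overlap exons of Gm45808 on the same strand, where assignment by strand would not separate the reads.

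The BH3-only genes differed from each other: Bcl2l11 rose and Bbc3 was not called. Bcl2l11 encodes BIM, which binds every main anti-apoptotic member and whose transcription is driven by FOXO factors. It lies on chromosome 2 (128126038-128162547, plus strand) and had the lowest level of the 9 genes per kilobase of exon, with 241, 262 and 223 normalised reads in air and 409, 339 and 332 in hyperoxia. Every hyperoxia library was above every air library, with hyperoxia library 1 the highest. The mean rose 1.49-fold from 242 ± 19.4 to 359.9 ± 42.8 (SD, n = 3 each), a log2 fold change of 0.57 with a standard error of 0.12 (limma adjusted p = 0.0070), called under all 16 alternatives.

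Bbc3 encodes PUMA, a BH3-only protein induced by p53, and lies on chromosome 7 (16308393-16318205, plus strand). Air libraries had 473, 443 and 483 normalised reads, and hyperoxia libraries had 416, 457 and 412. The groups overlapped through hyperoxia library 2 and air library 2. Means were 466 ± 20.8 and 429 ± 25 (SD, n = 3 each), and the log2 fold change of -0.12 with a standard error of 0.09 was not called here (limma adjusted p = 0.34) or under any of the 16 alternatives.

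For Bcl2l11 and Bbc3, the promoter window of each that holds a FOXO core is shown. Both come from the RefSeq-based table for GRCm38.p6 (300 bases, of which 250 lie before the start, 5′ to 3′), at chr2:128125788-128126087 on the plus strand for Bcl2l11 and chr7:16310011-16310310 on the plus strand for Bbc3. Capitals mark the FOXO core GTAAACA on either strand and, in Bcl2l11, a CCAAT box.
Bcl2l11: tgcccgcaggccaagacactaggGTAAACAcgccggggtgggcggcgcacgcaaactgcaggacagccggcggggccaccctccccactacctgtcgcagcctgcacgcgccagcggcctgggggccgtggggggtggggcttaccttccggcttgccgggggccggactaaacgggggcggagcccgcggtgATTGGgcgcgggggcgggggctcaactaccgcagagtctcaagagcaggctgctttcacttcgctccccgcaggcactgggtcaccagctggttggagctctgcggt
Bbc3: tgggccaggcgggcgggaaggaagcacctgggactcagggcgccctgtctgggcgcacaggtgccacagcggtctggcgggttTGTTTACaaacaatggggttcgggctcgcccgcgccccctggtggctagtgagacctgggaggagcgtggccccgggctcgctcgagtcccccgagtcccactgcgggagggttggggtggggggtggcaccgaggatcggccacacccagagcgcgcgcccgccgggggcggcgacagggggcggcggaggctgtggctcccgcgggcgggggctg
The FOXO core was present in 2 of the 14 windows of the 9 genes, 1 of each of these genes, and in 3.65% of 32851 promoter windows of the same length. CCAAT was found in 37.4% of all windows. No window of the 9 genes held the AP-1 letters TGANTCA (7.81% of all windows) or the CRE letters TGACGTCA (1.79%), searched on both strands. The p53 half-site RRRCWWGYYY (R for A or G, W for A or T, Y for C or T) was found in 8.36% of all windows. Among the 9 genes it was found in the Bax window only, and in no window of Bbc3. These matches describe letters in a window and not binding. A link of FOXO factors to the values of either gene was not tested.

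Of the apoptosome genes, Apaf1 rose and Casp9 was not called. Apaf1, the scaffold that binds cytochrome c, lies on chromosome 10 (90989311-91082770, minus strand). It had 405, 382 and 409.6 normalised reads in air and 670.0, 529.8 and 585 in hyperoxia. The air libraries were close together and all hyperoxia libraries were well above them. The mean rose 1.49-fold from 399 ± 15.0 to 595 ± 70.6 (SD, n = 3 each), a log2 fold change of 0.57 with a standard error of 0.10 (limma adjusted p = 0.0040), called under all 16 alternatives.

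Casp9, the initiator caspase activated on that scaffold, lies on chromosome 4 (141793612-141815976, plus strand). Its normalised read count was 827, 843 and 865 in air and 926, 908 and 933 in hyperoxia. The groups did not overlap and spread little, with means of 845 ± 19.4 and 922 ± 13 (SD, n = 3 each). The log2 fold change of 0.13 with a standard error of 0.07 was not called (limma adjusted p = 0.21), nor under any of the 16 alternatives.

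**Figure D2:**
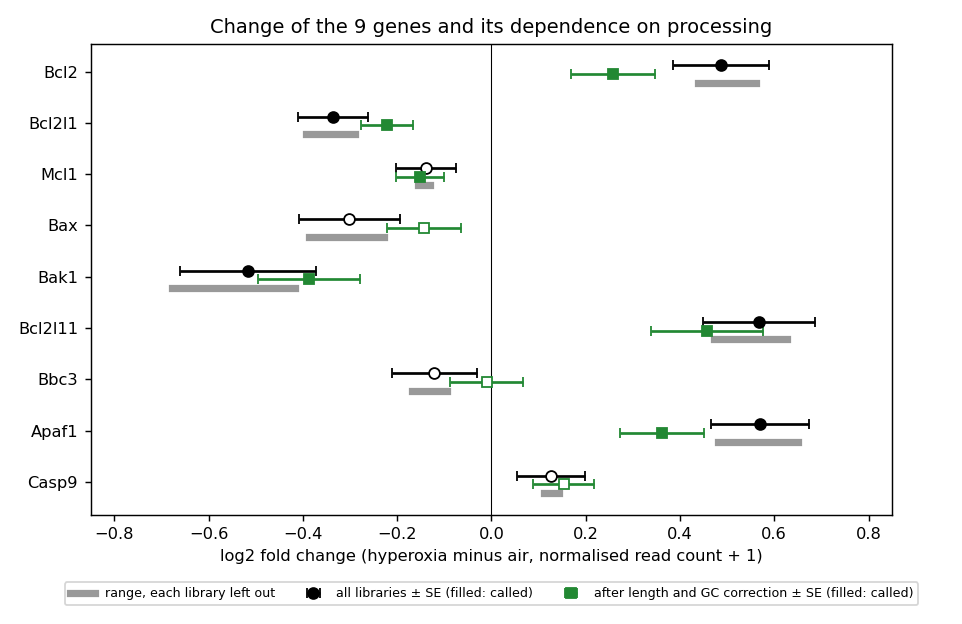
Log2 fold change (horizontal axis, hyperoxia minus air) of the 9 genes, with circles for all libraries, squares after correction for transcript length and GC content, whiskers for the standard error, filled symbols for called genes and grey bars for the range with each library left out. No range with a library left out crosses 0, and Bcl2, Bcl2l1, Bak1, Bcl2l11 and Apaf1 are filled in both fits.

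Levels can be compared between genes per kilobase, here of all exon bases of a gene. On this scale Mcl1 was highest in air, at 887 normalised reads per kilobase, followed by Bcl2l1 at 789, Bax at 611 and Bak1 at 411. Bbc3 followed at 219 and Casp9 at 163, and Apaf1 at 44.2, Bcl2 at 41.5 and Bcl2l11 at 30.1 were the lowest. Of the neighbours in this order, Apaf1 and Bcl2 overlapped between libraries in both groups, and the others did not overlap in either. The order was the same in hyperoxia, where Bcl2 had 58.1 and Bcl2l1 626 normalised reads per kilobase. The top of the order depended on the length used. Per kilobase of the longest transcript Bcl2l1 was highest in air at 1408 normalised reads, above Mcl1 at 887 and Bax at 875, and Bcl2l11 was again lowest at 48.0. On both scales Bcl2l1 was well above Bcl2.

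Transcript length moved with the fold change across the whole table, and the 9 genes followed it in part. Among 17735 genes with a length, the median log2 fold change went from -0.17 in the decile of shortest transcripts to 0.24 in the decile of longest, where 35.1% of genes were called higher and 4.97% lower. The decile of lowest GC content had a median of 0.15 and that of highest GC content one of -0.12. The 3 members that rose have long transcripts, of 5036 bases in Bcl2l11, 6577 in Apaf1 and 7191 in Bcl2. The 2 that fell have shorter ones, of 2387 bases in Bak1 and 2568 in Bcl2l1. What this trend comes from was not tested.

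**Figure D3:**
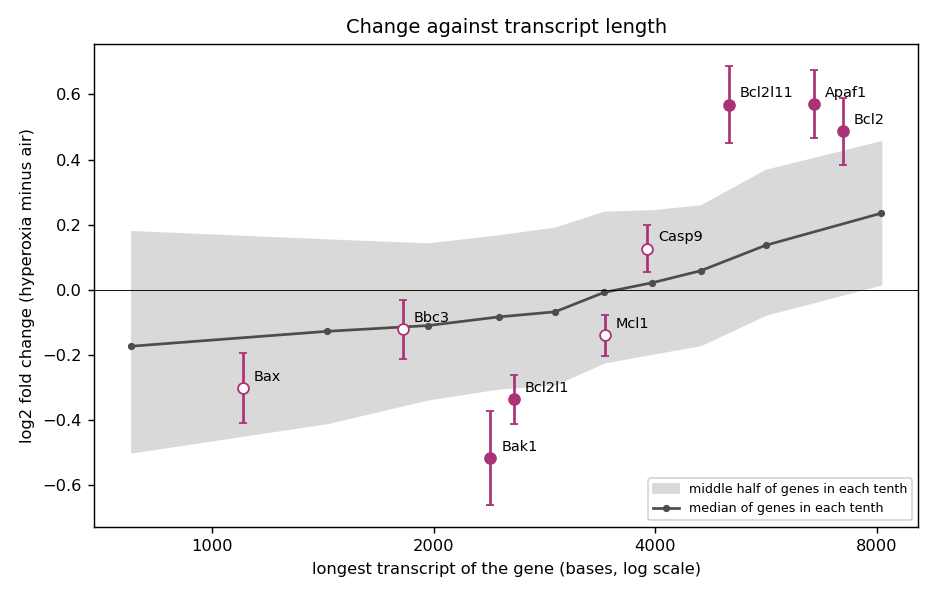
Log2 fold change (vertical axis, hyperoxia minus air) of the 9 genes with standard errors against the length of the longest transcript (horizontal axis, log scale), over the median and the middle 50% of genes in each decile of length. Bcl2l11, Apaf1 and Bcl2 lie above the grey band, Bak1 and Bcl2l1 below it, and filled points are called genes.

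When the smooth trend of each library on transcript length and GC content was removed, the 5 called genes stayed called and Mcl1 joined them, so that 6 of the 9 were called against 34.7% of all genes. In this fit 3 were higher (14.9% of all genes) and 3 lower (19.9%). Bcl2 moved most, from a log2 fold change of 0.49 to 0.26 (limma adjusted p = 0.048). Apaf1 moved from 0.57 to 0.36 (limma adjusted p = 0.012), Bcl2l1 from -0.34 to -0.22 (0.011), Bak1 from -0.52 to -0.39 (0.019) and Bcl2l11 from 0.57 to 0.46 (0.014). Bax, whose longest transcript has 1100 bases, went to -0.14 and Bbc3 to -0.01, and neither was called (limma adjusted p = 0.18 and 0.93).

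Ratios of a pair of members within a library do not depend on library scaling, and they are given as a description with no test. Bax per Bcl2, often used as a summary of the balance between effector and inhibitor, was 2.92, 2.72 and 2.04 in air and 1.31, 1.77 and 1.36 in hyperoxia. The groups did not overlap, and the log2 difference, hyperoxia minus air, was -0.79, or -0.40 after the length and GC correction. Bax per Bcl2l1, the more abundant inhibitor, was 0.266 ± 0.0282 in air and 0.272 ± 0.0141 in hyperoxia (SD, n = 3 each), and the groups overlapped. With Bcl2 as the denominator the groups were apart, and with Bcl2l1 they were not.

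Bcl2l11 per Mcl1, a BH3-only gene over an inhibitor that its protein binds, was 0.0805, 0.0855 and 0.0733 in air and 0.150, 0.125 and 0.118 in hyperoxia. All hyperoxia libraries were higher, with a log2 difference of 0.71, or 0.61 after the length and GC correction. Casp9 per Apaf1 was 2.12 ± 0.0834 in air and 1.56 ± 0.169 in hyperoxia (SD, n = 3 each), without overlap, but the groups overlapped after that correction (log2 difference -0.44 before and -0.21 after). Bak1 per Mcl1 was 0.327 ± 0.0439 in air and 0.254 ± 0.0556 in hyperoxia, with overlap.

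**Figure D4:**
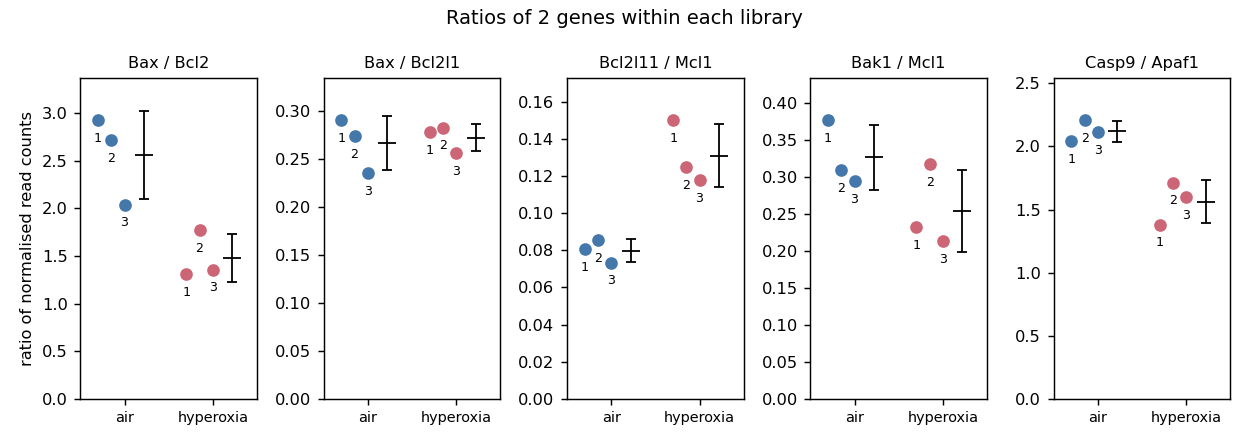
Ratio of normalised read counts (vertical axis, from 0) for 5 pairs of members in each of the 3 air and 3 hyperoxia libraries, with bars for the mean ± SD. The groups are apart for Bax per Bcl2, Bcl2l11 per Mcl1 and Casp9 per Apaf1, and overlap for Bax per Bcl2l1 and Bak1 per Mcl1.

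Around the 9 genes, 8 lists held 79 further genes of apoptosis, of which 74 were in the table and 68 were tested. Of these, 12 rose, 11 fell and 45 were not called, so that 33.8% were called against 30.5% of all genes. Their median log2 fold change was -0.06. Without air library 3 or hyperoxia library 1 the number called was 13, and without air library 1 or 2 it was 14.

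Upstream regulators of BH3-only genes had the largest share of calls, with 3 higher and 4 lower of 11 tested (63.6%, against 30.5% of all genes). In the other lists between 0% and 33.3% of the genes tested were called. These lists were chosen with earlier results of these data known, and no list was tested as a set. Foxo3, which encodes a FOXO transcription factor, had 1728, 1809 and 1938 normalised reads in air and 3014, 2481 and 2774 in hyperoxia. It rose by a log2 fold change of 0.59 (limma adjusted p = 0.0017). Foxo1, the other FOXO gene of the list, was not called (-0.07, limma adjusted p = 0.53). After the length and GC correction Foxo1 stood at -0.31 (limma adjusted p = 0.051). Trp53, which encodes p53, fell by 0.56 on the log2 scale (limma adjusted p = 0.0032), and its ubiquitin ligase Mdm2 fell by 0.25 (0.018). Jun, a target of the JNK kinases, fell by 0.73 (limma adjusted p = 6.5e-04) in the libraries labelled hyperoxia. The doubt on direction stated at the outset holds for Jun as for all genes here. The JNK genes went in opposite directions, with Mapk8 at 0.35 (limma adjusted p = 0.0090) and Mapk9 at 0.36 (0.0053) higher and Mapk10, the neuronal form, at -0.29 (0.021) lower. Mdm2 lost its call without any 1 of the air libraries or without hyperoxia library 1 (-0.26 to -0.23 over the 6 libraries left out, limma adjusted p up to 0.077). Mapk10 lost its call without air library 1 (-0.26, limma adjusted p = 0.091), 2 (-0.29, 0.082) or 3 (-0.31, 0.058) or hyperoxia library 1 (-0.28, 0.073). It was called under 11 of 16 alternatives. Mapk8 was not called after the length and GC correction (0.10, limma adjusted p = 0.24). Mdm2 and Foxo1 were outside the rule for named genes. Mdm2 is named as the remaining called gene of the list and Foxo1 as its other FOXO gene.

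Of the other caspase and DNA fragmentation genes reported here, Casp2 rose by 0.31 on the log2 scale (limma adjusted p = 0.034), and Acin1, which acts in the chromatin condensation of apoptosis, fell by 0.29 (0.015). Casp2 kept its call without hyperoxia library 2 and lost it without any other library (0.26 to 0.35, limma adjusted p from 0.064 to 0.13). It was called under 10 of 16 alternatives. Acin1 lost its call without air library 1 (-0.29, limma adjusted p = 0.064) or 3 (-0.26, 0.075) or hyperoxia library 1 (-0.26, 0.066).

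Among genes of mitochondrial proteins, the mRNA of 1 rose and that of 1 fell, of 8 tested. Cycs, which encodes the cytochrome c that binds APAF1, had 2332, 2444 and 2243 normalised reads in air and 1760.0, 1852 and 1883 in hyperoxia, and fell by 0.35 on the log2 scale (limma adjusted p = 0.0057). Vdac3, an outer membrane channel, rose by 0.36 (limma adjusted p = 0.0041) and was not called after the length and GC correction (0.073). Cycs and Foxo3 were each called under all 16 alternatives.

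The other BH3-only and effector genes had 1 higher and 1 lower of 6 tested, Hrk at 0.28 (limma adjusted p = 0.025) and Bad at -0.30 (0.024), both BH3-only genes. Hrk lost its call without air library 2 (0.23, limma adjusted p = 0.12) or 3 (0.29, 0.076) or hyperoxia library 1 (0.26, 0.090) or 3 (0.25, 0.056). It was also not called in limma without the trend (adjusted p = 0.069), so that 11 of 16 alternatives called it. Bad kept its call without hyperoxia library 2 and lost it without any other (-0.31 to -0.25, limma adjusted p from 0.060 to 0.094), and stood at -0.12 after the length and GC correction (0.22). Of the exon bases of Bad, 20.5% overlap Gpr137 on the other strand. Of 8 atypical relatives tested, Bnip3, a mitophagy receptor, rose by 0.31 (limma adjusted p = 0.013) and Bcl2l13 by 0.24 (0.037). Bnip3 lost its call without air library 3 (0.27, limma adjusted p = 0.066) or hyperoxia library 1 (0.29, 0.056). Bcl2l13 kept its call without hyperoxia library 2 and lost it without any other library (0.20 to 0.28, limma adjusted p from 0.053 to 0.16), and stood at 0.05 after the length and GC correction (0.57). In limma without the trend Bcl2l13 was not called either (adjusted p = 0.076), so that 9 of 16 alternatives called it. Bcl2l2, the 1 other anti-apoptotic gene tested, had a log2 fold change of -0.09 and was not called.

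Inhibitors of apoptosis had 2 higher and 1 lower of 9 tested. Birc6 rose by 0.48 (limma adjusted p = 0.018) and Birc5, which also serves in cell division, by 0.53 (0.036), while Xaf1, an antagonist of XIAP, fell by 0.74 (0.0098). Birc5, at 57.5 to 103 normalised reads, kept its call without hyperoxia library 2 and lost it without any other library (0.40 to 0.60, limma adjusted p from 0.064 to 0.12). It was also not called with no filter (limma adjusted p = 0.051), quantile normalisation (0.051) or DESeq2 (0.057), so that 8 of 16 alternatives called it. Birc6 lost its call without air library 1 (0.48, limma adjusted p = 0.069) or 2 (0.46, 0.073) or hyperoxia library 1 (0.45, 0.068). It also lost it under the length and GC correction (0.13, 0.087), and 11 of 16 alternatives called Birc6. The death receptor list had 0 higher and 3 lower of 13 tested. Tnfrsf25, a death receptor of the TNF family, had 975, 1103 and 1129 normalised reads in air and 261, 232 and 306 in hyperoxia, a log2 fold change of -2.01 (limma adjusted p = 1.1e-04). That was the largest change in size among the 68 genes. Its direction carries the doubt stated at the outset for all genes. The Fas-inhibitory genes Faim and Faim2 fell by 0.41 and 0.35 (limma adjusted p = 0.0053 and 0.019). Faim2 lost its call without air library 1 (-0.32, limma adjusted p = 0.087), 2 (-0.38, 0.055) or 3 (-0.36, 0.061). It was called under 12 of 16 alternatives.

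**Figure D5:**
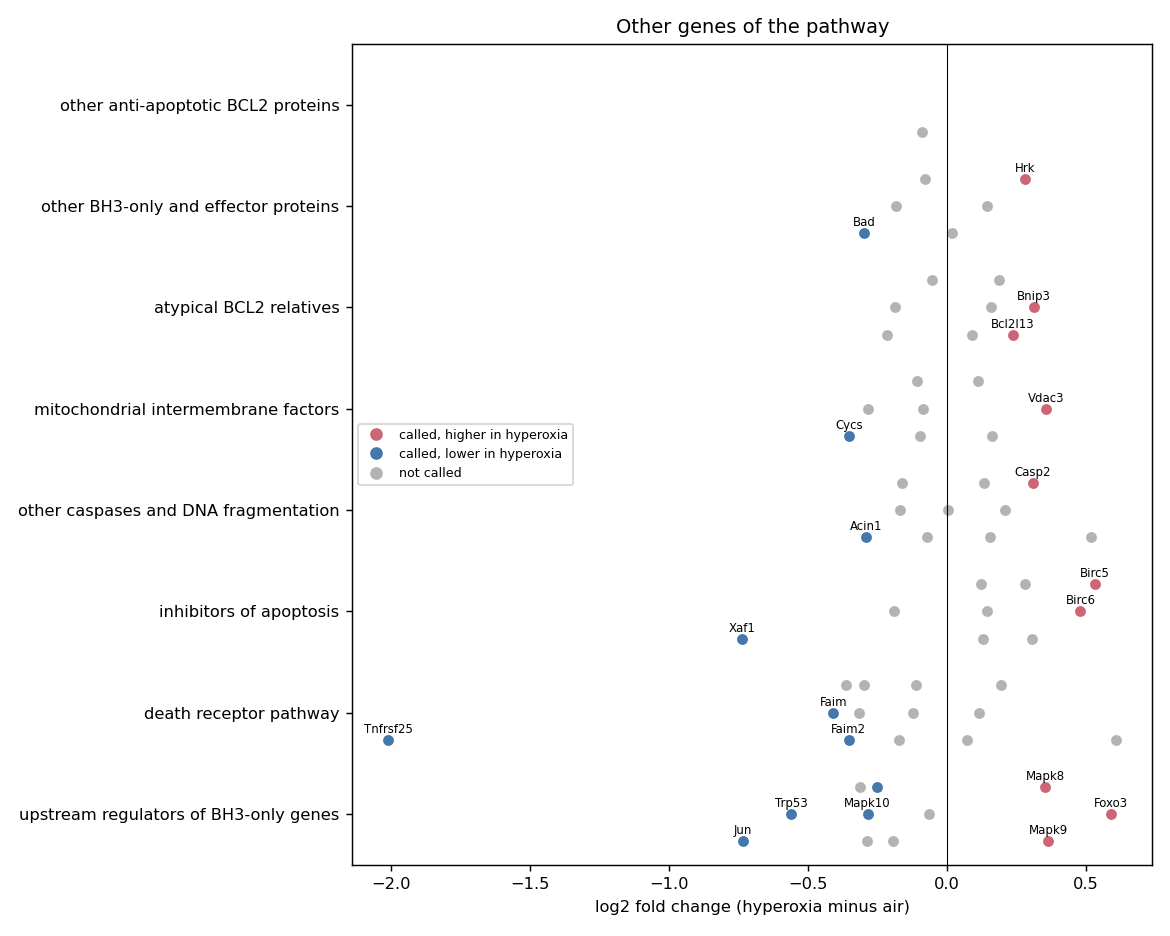
Log2 fold change (horizontal axis, hyperoxia minus air) of the other apoptosis genes tested and reported here, in 8 lists (vertical axis), with coloured points for called genes and grey for the rest. Tnfrsf25 stands at -2.01, and the other called genes lie between -0.74 and 0.59.

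Some markers of the cell types that the dissection could hold moved with the groups. The summed normalised reads of 6 oligodendrocyte markers, 5 of which fell, ranged from 211426 to 321844 in air and from 144727 to 177382 in hyperoxia. The 6 thalamic markers, 3 of which rose, ranged from 5208 to 5291 in air and from 7232 to 8137 in hyperoxia, and the 7 hippocampal identity genes, of which 1 rose and 2 fell, from 54269 to 57892 and from 38273 to 52806. Neuronal markers, of which 2 rose and 3 fell of 6, ranged from 190016 to 201074 in air and from 178892 to 187886 in hyperoxia. Endothelial markers rose in 3 of 5 genes, cycling cell markers in 3 of 6, microglial markers in 2 of 6 and oligodendrocyte precursor markers in 2 of 5, with 0 lower in each list. The summed reads of these 4 lists did not overlap between groups, from 10347 to 10418 in air and 11012 to 12132 in hyperoxia for microglia and from 18545 to 21073 and 21172 to 23474 for precursors. Of all genes tested, 14.9% were called higher and 15.6% lower, and the groups did not overlap for 46.1%. Astrocyte markers, with 2 higher and 1 lower of 5, ranged from 86693 to 87327 in air and from 77934 to 86845 in hyperoxia, and immature neuron markers, with 1 higher and 1 lower of 5, from 10613 to 11334 and from 9797 to 13452. Choroid plexus markers ranged from 551 to 1406.5 in air and from 487 to 8154 in hyperoxia, where library 3 was highest, and 1 of 6 rose. No marker was at 0 in any library, and the part of cell composition or dissection in the changes of the 9 genes was not tested.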

How the data were processed

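RNA of the left hippocampus was sequenced in 3 air and 3 hyperoxia libraries, strand-specific and polyA-selected. The deposited signal is a normalised count: reads per gene scaled by the authors with a size factor for each library, with DESeq2 according to the table's name. The submitters' processing notes name FastQC, STAR 2.5.3a, HTSeq and DESeq2 without a role. Genome build, annotation and strand of counting: not given in the sources used here. Columns of fold changes, standard errors and p-values in the authors' comparison table were not used. Every sample column of the count table was used.

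In each library 100% of the values were within 0.01 of a whole multiple of 1 read, so reads were recovered, from 30384052 to 38746972 per library. Groups came from the column headings. Genes with a mean of at least 10 (17778 of 24935) were tested with limma 3.58.1 (R 4.3.3, with trend) on log2 of the value plus 1, which understates changes of low genes, with p-values adjusted by Benjamini-Hochberg and called under 0.05. The unit is normalised, so count tests on recovered reads (edgeR 4.0.16, DESeq2 1.42.0) were alternatives. The others were a pseudocount of 0.5 or 5, a minimum mean of 50 or no filter, quantile or TMM scaling, limma without trend, each library left out, and removal of each library's trend on length and GC content (mgcv 1.9.3). The limma, edgeR and DESeq2 fits were tested on simulated data.

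Lengths, positions and coding stretches came from GENCODE M21 (GRCm38), which held 99.68% of the gene identifiers, 84.82% in the same version. Promoters came from a RefSeq table, in which all 9 genes matched. Named genes were the 9 members, in each list the called genes with the largest change (up to 3 each way), and for each called member the 2 genes with the highest Pearson r. The members and lists were chosen with earlier results of these data known. Of the genes that this rule names, 2 are counted in the list totals but not reported here.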

Additional observations from a re-analysis of the deposited data

How the results depend on the processing

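Each gene and count was recomputed under 16 alternatives and each ratio under 9. Bcl2, Bcl2l1, Bcl2l11 and Apaf1 stayed called under all of them, and Bbc3 and Casp9 under none. Bak1 lost its call in limma without the trend (-0.52, adjusted p = 0.073), so that 1 member in place of 2 was called lower there, and without 4 of the 6 libraries. Its log2 fold change ranged from -0.68 to -0.42 with a library left out. Mcl1 was called after the length and GC correction (-0.15) and Bax without hyperoxia library 2, with a range from -0.39 to -0.23. With a library left out, from 3048 to 7756 genes were called in place of 5425, 1445 to 3838 of them higher and 1603 to 3918 lower, and 1 to 3 members lower. The lowest number was without air library 1 and the highest without hyperoxia library 2. The list counts, whose alternatives were chosen after seeing the data, ranged from 13 to 26 called in place of 23, from 6 to 13 higher and from 6 to 13 lower. The log2 ratio of Bax to Bcl2 moved from -0.79 to -0.40 and that of Casp9 to Apaf1 from -0.44 to -0.21 under the length and GC correction, also added later. The log2 ratio of Bax to Bcl2l1, 0.03, was -0.052 without air library 3, and ranged from there to 0.099 with a library left out. The causes were not tested. Of 22 named list genes, 10 were called under every alternative and 0 reversed. No paired analysis was possible because the titles number the animals 1 to 6, the groups share no such number and the column numbers name no animal. Depth left a counting error of at most 6.79% for the member with fewest reads, Bcl2l11.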

Other observations

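For each called member, the genes whose log2 values followed it most closely over the 6 libraries were looked up, as a description. Bcl2 was closest to Stx17 and Wdfy4 (Pearson r = 0.998 for both), Bcl2l1 to Zdhhc14 (0.999) and Fam104a (0.998), and Bak1 to Washc3 (0.999) and Sars (0.998). Bcl2l11 was closest to Aldh3a1 (0.998) and Urgcp (0.997), and Apaf1 to Dlg2 (0.9997) and Ppargc1a (0.999). The 6 points share 2 groups and the library scaling, and 17778 genes were searched.

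The spread between libraries differed widely among the 9 genes. In air the SD was 1.07% of the mean for Mcl1 and 12.4% for Bak1, and in hyperoxia 1.41% for Casp9 and 20.5% for Bak1.

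Among list genes that did not pass the test, Ngfr, the p75 neurotrophin receptor, had a log2 fold change of 0.61 (limma adjusted p = 0.099) and Casp1, an inflammatory caspase, 0.52 (0.30).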
